A study of Mus musculus with 9 samples.

Results

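The MHC class II presentation genes are the 10 mouse genes H2-Aa, H2-Ab1, H2-Eb1, Cd74, Ciita, H2-DMa, H2-DMb1, H2-DMb2, H2-Oa and H2-Ob. They were taken by symbol from 45777 gene identifiers, and all 10 were found, each as a single row in every table. The libraries are bulk RNA-seq of CD11b+ cells isolated from dissociated mouse liver after acetaminophen (APAP) had been given intraperitoneally to cause acute liver failure. All 9 libraries come from APAP-injected mice harvested at 48 hours, so no uninjured liver was among them. The PBS group received PBS, the HEK-EV group received SIRP-EV derived from HEK cells, a human kidney cell line, and the MSC-EV group received SIRP-EV derived from MSC. The vesicles were injected intravenously 8 hours after APAP, and each group holds 3 libraries. Strain, age, sex, vesicle dose and the meaning of SIRP are not given in the labels, nor is it stated whether a library is 1 animal, a pool, or a repeat, so p-values measure only the spread between these libraries.

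MHC class II molecules show peptides from taken-up material to CD4 T cells. An alpha chain (H2-Aa) and a beta chain (H2-Ab1) form the I-A molecule, and H2-Eb1 is the beta chain of the I-E molecule. The invariant chain Cd74 holds the new pair together and plugs its groove until proteases cut it away in the endosome. H2-DM, built of H2-DMa with H2-DMb1 or H2-DMb2, then swaps the remaining fragment for a peptide, and H2-O, built of H2-Oa and H2-Ob, restrains H2-DM. Ciita is the coactivator that switches these genes on together. It docks on RFX, CREB and NF-Y proteins that sit on the X and Y boxes of class II promoters. In the liver, class II is carried by dendritic cells, B cells, Kupffer cells, monocyte-derived macrophages and sinusoidal endothelial cells.

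The promoters are shown because they carry what these genes are known to share, the X and Y boxes through which Ciita acts. RefSeq promoter entries (250 bases before to 50 after the listed start, GRCm38.p6) were matched for 7 of the 10 genes, all on chromosome 17. H2-Ab1, Cd74 and Ciita had no entry. Each line below is 75 bases, 5′ to 3′ in the direction of transcription, aligned so that the Y box core stands at the same place in every line. Capitals mark the Y box core ATTGG, and where present the X box core CCNAGNNAC and the stretch AACNNATGATG that continues it with a shared AAC.
H2-Oa, chr17:34092281-34092355, plus strand: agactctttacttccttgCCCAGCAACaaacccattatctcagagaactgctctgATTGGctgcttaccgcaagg
H2-DMb2, chr17:34145104-34145178, plus strand: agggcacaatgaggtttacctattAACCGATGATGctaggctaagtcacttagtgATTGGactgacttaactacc
H2-DMb1, chr17:34153075-34153149, plus strand: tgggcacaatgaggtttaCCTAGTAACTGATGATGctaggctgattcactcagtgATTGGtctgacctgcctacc
H2-Ob, chr17:34238793-34238867, plus strand: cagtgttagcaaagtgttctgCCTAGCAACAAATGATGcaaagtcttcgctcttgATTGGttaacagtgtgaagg
H2-Aa, chr17:34287852-34287926, minus strand: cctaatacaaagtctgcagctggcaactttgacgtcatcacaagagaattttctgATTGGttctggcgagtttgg
H2-Eb1, chr17:34305753-34305827, plus strand: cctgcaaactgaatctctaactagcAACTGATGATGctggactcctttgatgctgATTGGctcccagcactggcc

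In these lines the Y box core lies between 43 bases (H2-Oa) and 90 bases (H2-DMb2) before the listed start. Searched on both strands, ATTGG was in the entries of 7 of 7 class II genes and in 37.4% of 32851 promoters, so the short core alone marks little. CCNAGNNAC was in 5 of 7 (H2-Aa, H2-DMb1, H2-DMb2, H2-Oa and H2-Ob) and in 17.3% of promoters. In H2-Aa and H2-DMb2 that match is not in the printed stretch as written. The X box core followed by the Y box core after 5 to 40 bases on the same strand was in 3 of 7 (H2-DMb1, H2-Oa and H2-Ob) and in 0.630% of promoters.

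Both longer spellings were chosen after reading the sequences. TGATTGG, which contains ATTGG, was in 6 of 7 genes and in 7.82% of promoters; H2-DMa was the exception. AACNNATGATG was spelled from letters that H2-DMb1 and H2-Ob share, so its matches in those genes were fixed in advance. It was in 4 of 7 (H2-DMb1, H2-DMb2, H2-Eb1 and H2-Ob) and in 0.137% of promoters, 45 in all. A match is a description of letters, and a missing match says only that those letters are not in that window.

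Across the 9 libraries the tables list 13130 to 13633 genes at 1 or more TPM, a length-corrected share of the library's transcripts. No read counts were among the values, so depth is known only relatively, through the ratio of coverage to FPKM. Its median over genes was 4.90 to 5.87 in PBS, 5.80 to 6.03 in HEK-EV and 6.13 to 6.37 in MSC-EV, highest in the MSC-EV libraries. Itgam, which encodes CD11b, was at 289 to 377 TPM in PBS, 339 to 434 in HEK-EV and 196 to 255 in MSC-EV. The leukocyte gene Ptprc was at 515 to 647 TPM in PBS, 575 to 669 in HEK-EV and 418 to 428 in MSC-EV. For both genes every MSC-EV library lay below every PBS and HEK-EV library. Pancreatic acinar genes took 0.00133% to 0.00154% of TPM in 5 libraries, and 0.00404% and 0.117% in HEK-EV replicates 1 and 2, and 0.0156% and 0.328% in MSC-EV replicates 1 and 3.

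The 10 genes together took 0.458% to 0.650% of all TPM in PBS, 0.427% to 0.651% in HEK-EV and 0.692% to 0.996% in MSC-EV. Every MSC-EV library lay above all 6 others. The same held singly for 8 genes, namely both I-A chains, the I-E beta chain, the invariant chain, Ciita, H2-DMb2 and both H2-O chains, while H2-DMb1 overlapped between groups and H2-DMa followed no group. Of all genes tested, 11.2% had every MSC-EV library above every PBS library and 12.6% had every one above every HEK-EV library. Against PBS, the log2 fold change in MSC-EV was above 0 for 10 of 10 genes, with a median of 0.63, beside 0.01 over the 13820 genes tested. In limma with Benjamini-Hochberg adjustment over all of those genes, 1 of 10 (H2-DMb2) passed an adjusted p of 0.05, beside 5.11% of all genes. In bulk RNA, more cells of a type that carries class II and more class II RNA per cell cannot be told apart.

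**Figure D1:**
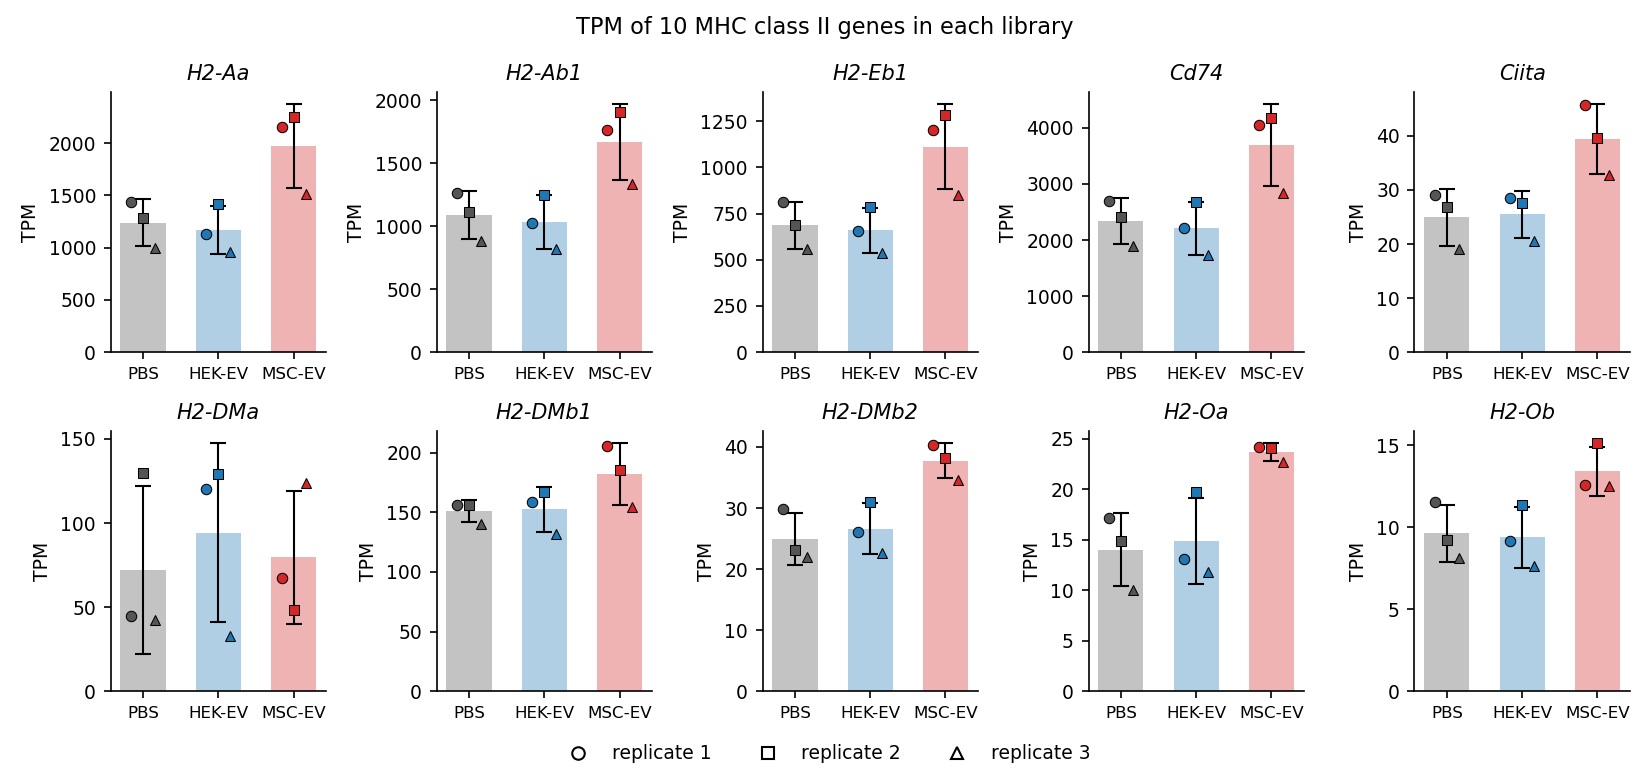
TPM (vertical axes, linear and starting at 0) of each of the 10 genes in every library, grouped by what the mice received; bars are means, error bars are SD (n = 3), and point shapes mark replicates 1 to 3. In 8 panels all 3 MSC-EV points lie above every PBS point; the points of H2-DMb1 overlap and those of H2-DMa fall into a high and a low set in every group.

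For the classical chains, levels are given in replicate order. H2-Aa read 1441, 1280 and 998 TPM in PBS, 1133, 1417 and 957 TPM in HEK-EV and 2151, 2246 and 1511 TPM in MSC-EV. H2-Ab1, the partner of H2-Aa, read 1261, 1114 and 884 TPM in PBS, 1024, 1249 and 821 TPM in HEK-EV and 1761, 1906 and 1330 TPM in MSC-EV. The lowest MSC-EV library, replicate 3, was the closest to the highest PBS library, replicate 1, and the groups did not overlap. On the log2(TPM + 1) scale H2-Aa was higher in MSC-EV than in PBS by 0.66 (SE 0.195, adjusted p = 0.0805), 1.58-fold. The corresponding value for H2-Ab1 was 0.61 (SE 0.188, adjusted p = 0.0880). Neither passed the threshold.

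H2-Eb1 read 811, 689 and 558 TPM in PBS, 653, 786 and 539 TPM in HEK-EV and 1202, 1283 and 852 TPM in MSC-EV. All 3 MSC-EV libraries were above the other 6, by 0.69 on the log2 scale against PBS (SE 0.193, adjusted p = 0.0712). H2-Ea, which encodes the alpha chain of I-E, was listed at 0 in all 9 libraries. The other beta chain gene of this class, H2-Eb2, was low, at 1.03 to 2.43 TPM in PBS, 1.72 to 2.27 TPM in HEK-EV and 2.69 to 4.63 TPM in MSC-EV.

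Cd74, the invariant chain, was the most abundant of the 10 genes in every library. It read 2703, 2404 and 1894 TPM in PBS, 2223, 2672 and 1730 TPM in HEK-EV and 4044, 4173 and 2845 TPM in MSC-EV. The MSC-EV libraries were again the 3 highest, and lay above PBS by 0.65 on the log2 scale (SE 0.200, adjusted p = 0.0880). Cd74 kept step with the classical chains. Its ratio to H2-Ab1 was 2.15 ± 0.00814 (SD, n = 3) in PBS, 2.14 ± 0.0318 in HEK-EV and 2.21 ± 0.0806 in MSC-EV, and the exact permutation test (two-sided) gave p = 0.4 for MSC-EV against PBS. The ratio of H2-Ab1 to H2-Aa was 0.877 ± 0.00801, 0.881 ± 0.0232 and 0.849 ± 0.0310 in the same order (exact permutation p = 0.3). With 3 libraries a side the smallest p this test can give is 0.1, so it cannot pass 0.05.

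Ciita, the coactivator, was expressed far below H2-Aa, H2-Ab1, H2-Eb1 and Cd74. It read 29.1, 26.8 and 19.0 TPM in PBS, 28.5, 27.5 and 20.5 TPM in HEK-EV and 45.7, 39.7 and 32.8 TPM in MSC-EV. The lowest MSC-EV library was above the highest of the other 6. Set against PBS, MSC-EV gave a log2 difference of 0.65 (SE 0.182, adjusted p = 0.0726), close to those of the same genes. Ciita overlaps Dexi and a predicted gene on the opposite strand, which reached at most 6.95 TPM.

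H2-DMb2 and H2-DMb1 encode alternative beta chains of the peptide exchanger H2-DM. H2-DMb2 read 29.8, 23.1 and 22.0 TPM in PBS, 26.0, 31.1 and 22.7 TPM in HEK-EV and 40.3, 38.2 and 34.6 TPM in MSC-EV, with no overlap between MSC-EV and the rest. It was higher in MSC-EV than in PBS by 0.59 (SE 0.135, adjusted p = 0.0424, limma with Benjamini-Hochberg adjustment), the 1 call among the 10 genes. H2-DMb1 was the more abundant, at 157, 156 and 140 TPM in PBS, 159, 167 and 131 TPM in HEK-EV and 206, 185 and 154 TPM in MSC-EV. Here MSC-EV replicate 3 fell within the PBS range, and the log2 fold change was 0.26 (SE 0.117, adjusted p = 0.225). The ratio of H2-DMb2 to H2-DMb1 was 0.165 ± 0.0223 in PBS, 0.174 ± 0.0112 in HEK-EV and 0.209 ± 0.0145 in MSC-EV, with no overlap between MSC-EV and PBS (exact permutation p = 0.1, the smallest possible). The 2 transcripts are 94.7% identical over 1246 aligned bases (GENCODE M21), share an unbroken run of 221 bases, and 27.2% of the 50-base windows of H2-DMb1 occur unchanged in H2-DMb2, so how reads were divided between them is uncertain and so are both values.

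The H2-O chains restrain H2-DM. H2-Oa read 17.1, 14.9 and 10.1 TPM in PBS, 13.05, 19.8 and 11.8 TPM in HEK-EV and 24.2, 24.1 and 22.7 TPM in MSC-EV. The MSC-EV libraries were tightly grouped above the others, and 0.75 (SE 0.206, adjusted p = 0.0690) was the log2 fold change against PBS. H2-Ob read 11.6, 9.21 and 8.12 TPM in PBS, 9.15, 11.4 and 7.65 TPM in HEK-EV and 12.6, 15.1 and 12.6 TPM in MSC-EV. Its MSC-EV libraries were also the 3 highest, with a log2 fold change of 0.45 (SE 0.157, adjusted p = 0.126).

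H2-DMa, the alpha chain of H2-DM, stood apart from the other 9 genes. It read 44.6, 129.8 and 42.2 TPM in PBS, 120.5, 129.0 and 32.9 TPM in HEK-EV and 67.1, 48.0 and 124.0 TPM in MSC-EV. In 4 libraries (PBS replicate 2, HEK-EV replicates 1 and 2, and MSC-EV replicate 3) it was at 120.5 to 129.8 TPM and in the other 5 at 32.9 to 67.1 TPM, with nothing between. The log2 fold change of MSC-EV against PBS was 0.23 (SE 0.595, adjusted p = 0.861), with the widest error of the 10.

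The files also give each gene a mean coverage per base, which allows a second look at H2-DMa. Scaled to the same sum in every library, its coverage was 19.4, 20.6 and 19.7 in PBS, 20.1, 21.5 and 16.1 in HEK-EV and 26.4, 24.0 and 19.95 in MSC-EV. On this quantity the 4 libraries with high TPM did not stand apart from the other 5, whose values ran from 16.1 to 26.4. The ratio of its coverage to its FPKM was 0.798 to 0.896 in the 4 libraries with high TPM and 1.93 to 2.87 in the other 5. Relative to each library's most common ratio, it varied 3.18-fold between libraries, a spread exceeded by 10 of 13688 genes, while the other 9 class II genes varied by at most 1.03-fold. On coverage the log2 fold change of H2-DMa was 0.22 for MSC-EV against PBS (adjusted p = 0.337) and 0.28 against HEK-EV (adjusted p = 0.215). GENCODE M21 lists 8 transcript models of H2-DMa, from 350 to 2005 bases, and the gene overlaps Brd2 on the opposite strand; which of these moves with the TPM was not tested. Set against its inhibitor chain H2-Oa, H2-DMa gave a TPM ratio of 5.18 ± 3.17 (SD, n = 3) in PBS, 6.19 ± 3.24 in HEK-EV and 3.41 ± 1.83 in MSC-EV (exact permutation p = 0.5 for MSC-EV against PBS). On scaled coverage the ratio was 1.24 ± 0.352, 1.11 ± 0.189 and 0.827 ± 0.0883 in that order, with no overlap between MSC-EV and PBS (exact permutation p = 0.1, the smallest possible); this form was added after the TPM values were seen.

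**Figure D2:**
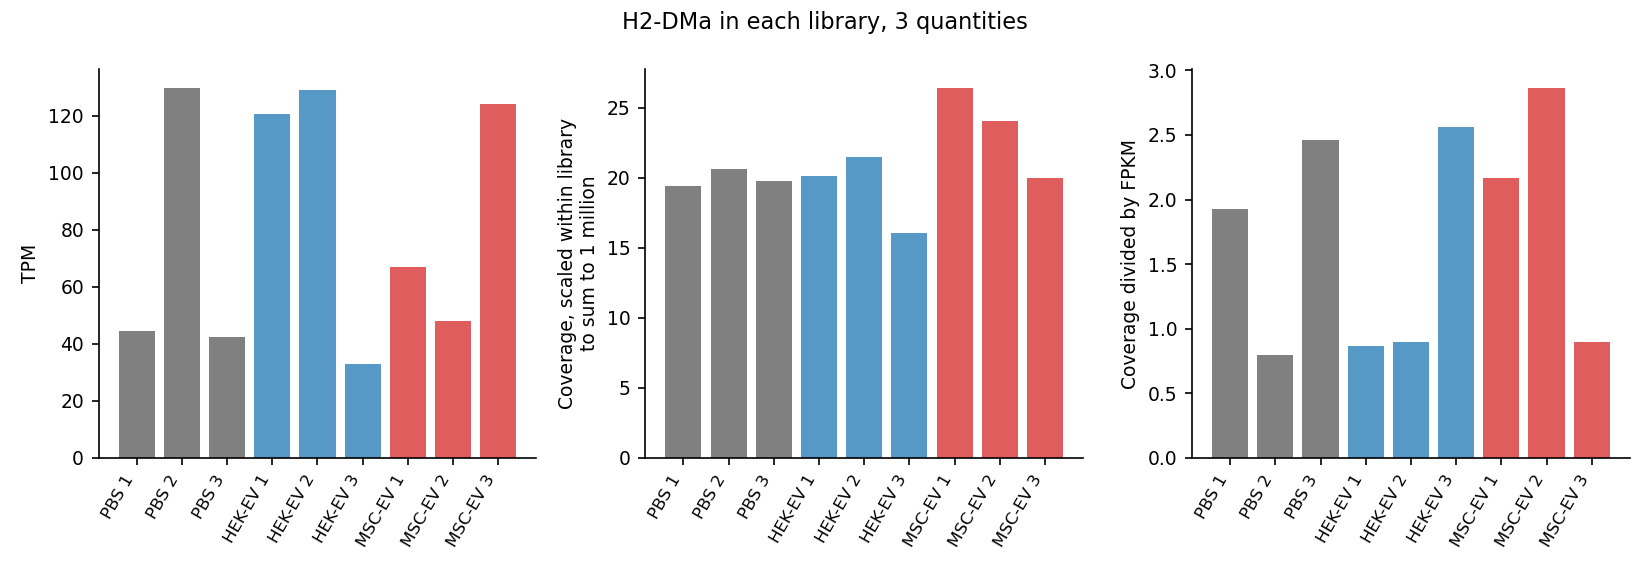
H2-DMa in each of the 9 libraries as TPM (left), as coverage scaled to the same sum in every library (middle) and as coverage divided by FPKM (right); each bar is 1 library and axes start at 0. The 4 libraries near 120 to 130 TPM have ratios under 0.9, and in scaled coverage they do not stand apart.

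The order of levels was nearly the same in every library. TPM fell from Cd74 to H2-Aa, H2-Ab1 and H2-Eb1 in all 9 libraries, although the H2-Aa and H2-Ab1 group ranges overlapped. H2-DMb1 came next, with H2-DMa below it by TPM. Ciita and H2-DMb2 were level, at 25.0 ± 5.28 and 24.9 ± 4.22 TPM (SD, n = 3) in PBS. H2-Oa was above H2-Ob in all 9 libraries. H2-Aa set against the class I gene H2-K1 gave 0.872 ± 0.221 in PBS, 0.7996 ± 0.153 in HEK-EV and 1.46 ± 0.274 in MSC-EV, with no overlap between MSC-EV and either other group (exact permutation p = 0.1 for both, the smallest possible).

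In the comparison of MSC-EV with PBS, 5.11% of all 13820 genes passed the adjusted threshold and 1.86% passed it in the higher direction, against 1 of the 10 class II genes. All 3 MSC-EV libraries lay above all 3 PBS libraries for 8 of 10 class II genes and for 11.2% of all genes. At an unadjusted p under 0.05, 8 of 10 class II genes and 9.92% of all genes were higher. The 7 genes with unadjusted support and no call (H2-Aa, H2-Ab1, H2-Eb1, Cd74, Ciita, H2-Oa and H2-Ob) had adjusted p-values of 0.0690 to 0.126.

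The H2-DMb2 call moved with single libraries, and its adjusted p ran from 0.00156 to 0.194 over 21 alternatives. It was 0.174 without PBS replicate 2, 0.135 without PBS replicate 3, 0.0565 and 0.0505 without HEK-EV replicates 1 and 2, and 0.155, 0.118 and 0.0586 without MSC-EV replicates 1, 2 and 3. Without PBS replicate 1, the PBS library highest in class II, 7 of 10 genes passed, and without MSC-EV replicate 3, the MSC-EV library lowest in class II, 2 of 10 passed. Over all genes the same comparison made 706 calls, with 1861 without PBS replicate 1 and 297 without HEK-EV replicate 2. There were 5 and 7 calls without PBS replicates 2 and 3, and 25, 59 and 469 without MSC-EV replicates 1, 2 and 3. With relative depth as a covariate 2 of 10 genes passed, with 1377 calls over all genes. With the libraries split at 0.002% acinar TPM as a term, an alternative added after seeing the data, 0 of 10 passed and the calls over all genes fell to 21. In that fit the log2 fold change was 0.63 for H2-Aa, 0.51 for Ciita, 0.49 for H2-DMb2 and 0.17 for H2-DMb1. The main fit gave 0.66, 0.65, 0.59 and 0.26 in that order. The SE of H2-Aa was 0.252 with the term and 0.195 without. The other 9 genes besides H2-DMa kept a positive log2 fold change in each of the 21 alternatives.

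MSC-EV against HEK-EV compares the vesicle sources directly and shares the MSC-EV libraries with the comparison above. The log2 fold changes were 0.75 for H2-Aa (SE 0.195, adjusted p = 0.0552), 0.70 for H2-Ab1 (adjusted p = 0.0606), 0.75 for H2-Eb1 (adjusted p = 0.0532) and 0.74 for Cd74 (adjusted p = 0.0603). Ciita gave 0.61 (adjusted p = 0.0807), H2-DMb2 0.50 (adjusted p = 0.0621), H2-Oa 0.67 (adjusted p = 0.0877) and H2-Ob 0.48 (adjusted p = 0.101). H2-DMb1 was at 0.25 (adjusted p = 0.238) and H2-DMa at -0.12 (adjusted p = 0.928). Thus 9 of 10 values were above 0, with a median of 0.64 beside -0.02 over all genes.

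With limma, 0 of 10 class II genes passed in MSC-EV against HEK-EV, beside 5.91% of all genes in either direction and 1.51% higher. At an unadjusted p under 0.05, 8 of 10 were higher, beside 8.23% of all genes, and for 8 of 10 every MSC-EV library was above every HEK-EV library, beside 12.6%. The count of 10 that passed was 5 without PBS replicate 1, 4 without MSC-EV replicate 3, and 4 with relative depth as a covariate. Over all genes the 817 calls of this comparison became 1369 without PBS replicate 1, and 1, 0 and 31 without HEK-EV replicates 1, 2 and 3. They became 0, 0 and 621 without MSC-EV replicates 1, 2 and 3, and 1478 with relative depth as a covariate.

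HEK-EV against PBS asks whether vesicles of the other source moved the genes, and shares libraries with both comparisons above. The groups overlapped for 10 of 10 genes, where 7.81% of all genes did not overlap, so the class II count is near what the other genes gave. The values lay 5 above and 5 below 0, with a median of -0.01. The values ran from -0.09 (H2-Aa and Cd74) to 0.09 (H2-DMb2), apart from H2-DMa at 0.35 (SE 0.595), and the limma adjusted p was 0.999 for each. The H2-DMa value was 0.98 without HEK-EV replicate 3, 0.87 without PBS replicate 2, and 0.012 to 0.11 without any 1 of the other 4 libraries of these groups. With limma, 0 of 10 class II genes passed, 0 of 10 had an unadjusted p under 0.05, and 0% of all genes passed (3.58%, 495 of 13820, at an unadjusted p under 0.05). For H2-Aa the 95% interval of the difference was -0.53 to 0.35, which leaves out the 0.66 of MSC-EV against PBS but not changes inside that interval, in either direction.

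**Figure D3:**
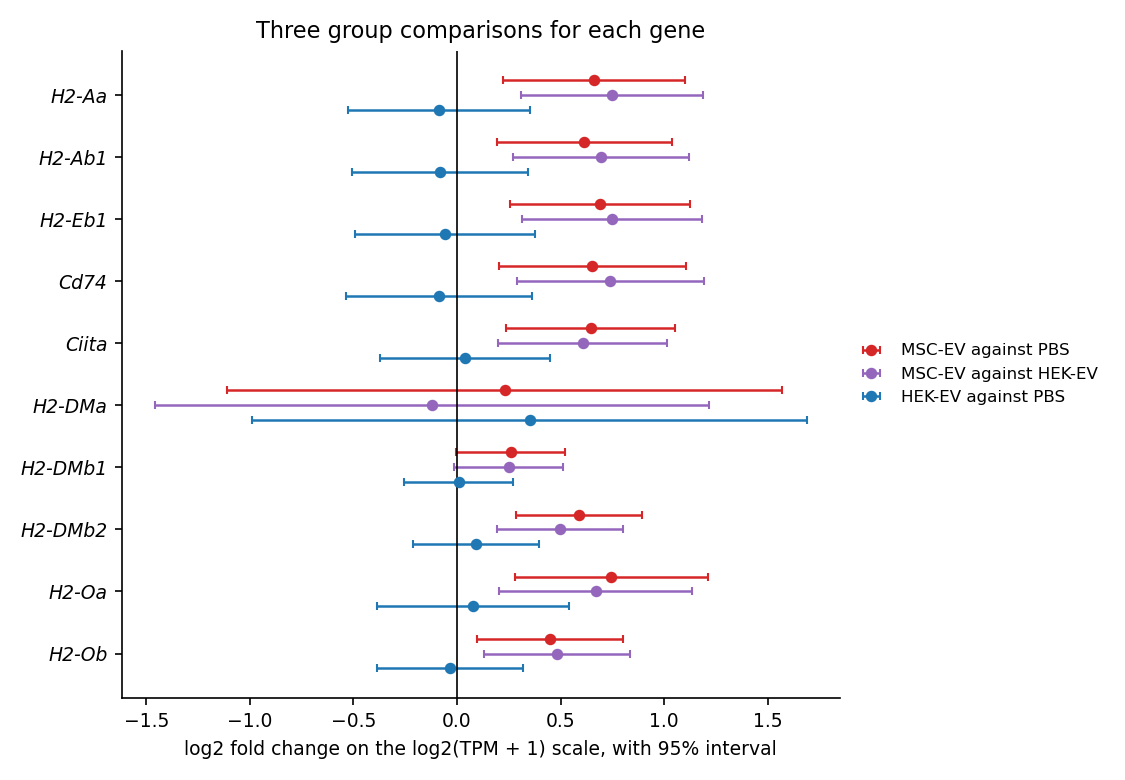
Log2 fold change on the log2(TPM + 1) scale (horizontal axis) with its 95% interval from limma, for each gene and each of the 3 comparisons. For 8 genes the intervals of both MSC-EV comparisons lie above 0 before adjustment for all genes; every interval of HEK-EV against PBS spans 0, and those of H2-DMa are the widest.

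All of these genes except H2-DMa moved together from library to library, also within groups. Among them, PBS replicate 1 was the highest PBS library for 9 of 9 genes and PBS replicate 3 the lowest for 9 of 9. HEK-EV replicate 2 was the highest of its group for 8 of 9 and HEK-EV replicate 3 the lowest for 9 of 9, and MSC-EV replicate 3 was the lowest of its group for 9 of 9. Over the 9 libraries, Pearson's r of log2(TPM + 1) was 0.787 to 0.998 in the 36 pairs without H2-DMa and 0.0742 to 0.285 in the 9 pairs with it. H2-Aa, H2-Ab1, H2-Eb1 and Cd74 were the closest, at 0.996 to 0.998 in 6 pairs. After group means were subtracted the 36 pairs still gave 0.586 to 0.995. These pairs share libraries and a common scale, and are a description.

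Ciita was compared with the other 9 genes over the same 9 libraries. For 8 of them Pearson's r was 0.871 (H2-Ob) to 0.954 (Cd74), with exact permutation p-values of 0.000670 to 0.00218 after Benjamini-Hochberg adjustment over 9 pairs (raw 7.44e-05 to 0.00194). Spearman's rho was 0.75 to 0.95 for the same 8, with exact permutation p-values of 0.00169 to 0.0287 after the same adjustment (raw 0.000353 to 0.0255). The permutations exchanged libraries across groups, so these p-values include the difference between groups. No p-value was taken after group means were subtracted. Without the 2 libraries farthest from the median of Ciita (PBS replicate 3 and MSC-EV replicate 1) r was 0.847 to 0.954, and after subtracting group means 0.670 to 0.891. H2-DMa gave r = 0.245 and rho = 0.2 on TPM (exact permutation p = 0.515 and 0.613, raw and adjusted alike). On scaled coverage it gave r = 0.831 (exact permutation p = 0.00800) and rho = 0.6 (exact permutation p = 0.0968). These coverage p-values are unadjusted, and coverage in place of TPM was an alternative added after seeing the data. For this form r was not taken without the farthest libraries or after subtracting group means.

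Ciita acts through DNA-bound partner proteins, whose transcripts were measured here. Of 7 enhanceosome genes (Rfx5, Rfxap, Rfxank, Creb1, Nfya, Nfyb and Nfyc), 0 passed in limma in any comparison, with a median log2 fold change of 0.01 in MSC-EV against PBS, where 1 of 7 had an unadjusted p under 0.05. Over all genes that share was 23% in either direction in this comparison, and 5.11% passed the adjusted threshold. The smallest p-values in that comparison were those of Nfyb (-0.18, adjusted p = 0.197), Rfxap (-0.13, adjusted p = 0.416) and Nfya (0.12, adjusted p = 0.503). Of 9 genes that feed into Ciita transcription, among them Ifngr1, Ifngr2, Jak1, Jak2, Irf1, Irf8, Spi1 and Socs1, 0 passed in MSC-EV against PBS. Their median was -0.18, and 5 had an unadjusted p under 0.05 (Ifngr1, Ifngr2, Jak1, Irf8 and Spi1), all lower. In MSC-EV against HEK-EV 1 of 9 passed, beside 5.91% of all genes. This was Jak1, a kinase of the interferon-gamma receptor, which fell (-0.28, limma adjusted p = 0.0317). It was at 166 to 188 TPM in HEK-EV and 140 to 153 TPM in MSC-EV, and the call held in 11 of 21 alternatives. The median of this list is thus on the other side of 0 from that of Ciita and the chains.

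Endosomal proteases cut the invariant chain and supply peptides. The list of 10 endosomal processing genes read here also holds Cst3 and Ifi30, which do not encode proteases. Of the 10, 2 rose and 1 fell in MSC-EV against PBS, where 5.11% of all genes passed (1.86% higher), with a median of 0.11. Ctsd, the protease cathepsin D, read 4442, 3157 and 3166 TPM in PBS, 3701, 3963 and 3575 TPM in HEK-EV and 6348, 6349 and 5242 TPM in MSC-EV (0.75 against PBS, adjusted p = 0.0256). Ctsb, cathepsin B, rose by 0.60 on the log2 scale (adjusted p = 0.0251). Ctsc, the protease that activates granule serine proteases, fell (-0.37, adjusted p = 0.0430). Against HEK-EV, where 5.91% of all genes passed, the same 3 genes did so in the same directions (0.67, 0.52 and -0.44, adjusted p = 0.0297, 0.0311 and 0.0263). Ctss, the cathepsin best known for the last cut of the invariant chain, was at 0.08 (adjusted p = 0.708). Of 21 alternatives, 13 kept Ctsd, 13 Ctsb and 5 Ctsc past the threshold against PBS.

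Of 8 genes of class II turnover and trafficking, 1 passed in MSC-EV against PBS, beside 5.11% of all genes, and 5 had an unadjusted p under 0.05, beside 23% of all genes. Their median was 0.18, with 6 of 8 values above 0. Marchf1, the ubiquitin ligase that takes class II off the surface of resting cells, read 71.9, 83.1 and 73.7 TPM in PBS, 83.0, 76.1 and 79.2 TPM in HEK-EV and 59.9, 58.5 and 64.5 TPM in MSC-EV. It fell in MSC-EV against PBS (-0.32, adjusted p = 0.0381, kept in 8 of 21 alternatives) and against HEK-EV (-0.38, adjusted p = 0.0243, kept in 14 of 21). All 3 MSC-EV libraries were below the other 6. Marchf8, a ligase of the same family, was at 0.35 in MSC-EV against PBS, with no overlap between these groups, and did not pass (adjusted p = 0.0636).

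The class I pathway was read in the same libraries. Of 15 class I genes, 0 passed in limma in any comparison. Over all genes, 5.11% passed in MSC-EV against PBS, 0% in HEK-EV against PBS and 5.91% in MSC-EV against HEK-EV. The class I median was -0.11 in MSC-EV against PBS, where 1 of 15 had an unadjusted p under 0.05, beside 23% of all genes. The smallest p-values there were those of Tapbp (-0.25, adjusted p = 0.209), H2-D1 (-0.19, adjusted p = 0.245) and Erap1 (-0.09, adjusted p = 0.358).

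On the chromosome, 8 of the class II genes lie in 1 stretch of chromosome 17, from 34092379 to 34316674 on mm10 (224 kb), and class I genes lie among them. In order along the plus strand they are H2-Oa, H2-DMa, H2-DMb2, H2-DMb1, H2-Ob, H2-Ab1, H2-Aa and H2-Eb1; H2-Aa alone is on the minus strand. Ciita lies on chromosome 16 (10480014 to 10531064) and Cd74 on chromosome 18 (60803849 to 60812652), and both varied with the cluster. The stretch holds 6 other genes with a symbol. Between H2-DMb1 and H2-Ob stand the immunoproteasome genes Psmb9 and Psmb8 and the peptide transporter genes Tap1 and Tap2. They gave -0.12, -0.15, -0.10 and -0.15 in MSC-EV against PBS, in that order, with adjusted p-values of 0.420 to 0.729. Brd2, next to H2-DMa, was at -0.03 (adjusted p = 0.795), and Gm20506 was below the filter, at 0.317 to 0.810 TPM. Of 5 neighbours with a promoter entry, 3 held the Y box core ATTGG (Gm20506, Psmb9 and Tap1), 3 held the X box core CCNAGNNAC (Brd2, Psmb9 and Tap1), 2 held TGATTGG (Psmb9 and Tap1), 0 held AACNNATGATG and 0 held the X box core followed by the Y box core at 5 to 40 bases.

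**Figure D4:**
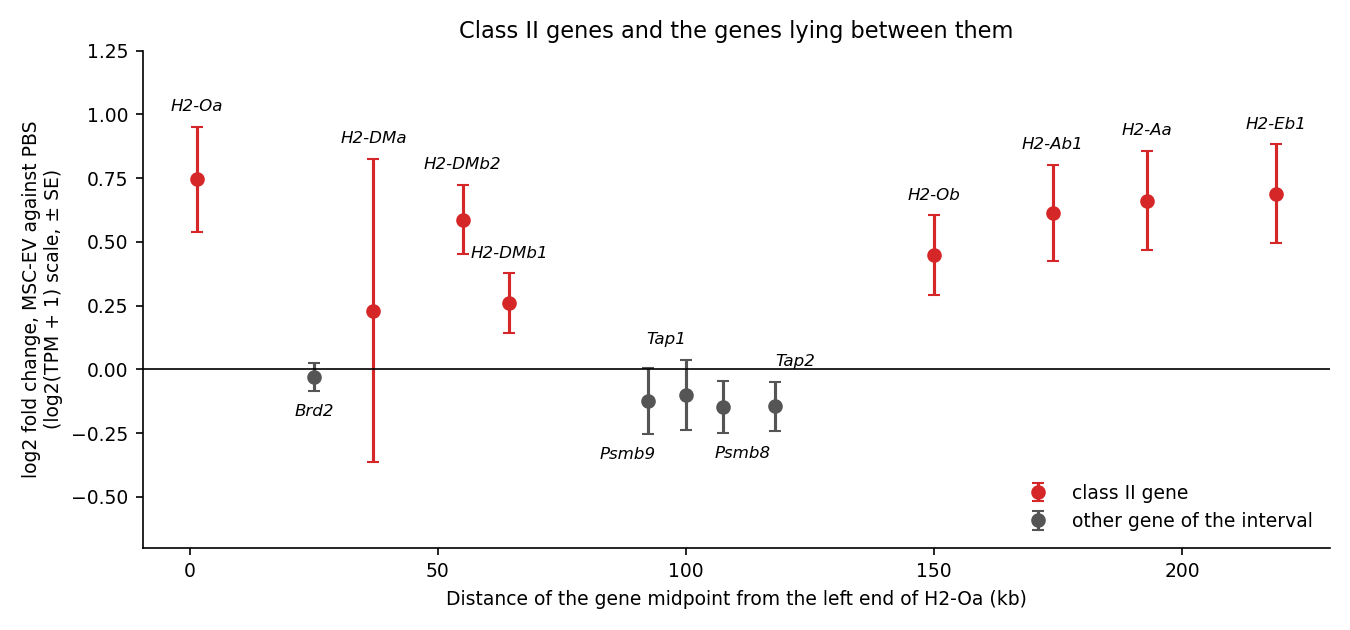
Log2 fold change of MSC-EV against PBS (vertical axis, log2(TPM + 1) scale, bars are SE from limma) for genes of the chromosome 17 stretch, placed by the distance of their midpoint from the left end of H2-Oa (horizontal axis, kb). The 8 class II genes are all above 0; Brd2, Psmb9, Tap1, Psmb8 and Tap2 are between -0.15 and -0.03.

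Marker lists show which class II-bearing cells the libraries could hold. Of 15 dendritic cell markers 14 were tested and 0 passed in limma in any comparison, with a median of 0.02 in MSC-EV against PBS, where 5 of 14 had an unadjusted p under 0.05, beside 23% of all genes. Their summed level was 415 to 433 TPM in PBS, 431 to 471 in HEK-EV and 440 to 523 in MSC-EV, with the lowest MSC-EV library above the highest PBS library. None of their means was at 0, and 8 of the 14 lay above 0 and 6 below, from -0.33 (Snx22) to 0.91 (Ccr7). The smallest p-values were those of Kmo (0.42, adjusted p = 0.0685), Ccr7 (0.91, adjusted p = 0.0701) and Clec10a (0.47, adjusted p = 0.0920). In MSC-EV against HEK-EV 7 of 14 had an unadjusted p under 0.05, beside 23.3% of all genes. Of these, Ccr7 (0.79), Cd209a (0.71), Clec10a (0.48), Flt3 (0.42) and Kmo (0.29) were higher, and Itgax (-0.26) and Batf3 (-0.23) were lower. Over all genes, 5.11% passed in MSC-EV against PBS and 5.91% in MSC-EV against HEK-EV. Of 12 B cell markers 5 passed the filter and 0 passed the test, with 2 of 5 at an unadjusted p under 0.05 in MSC-EV against PBS, beside the same 23%, both higher (Cd79b at 0.56, adjusted p = 0.109, and Cd22 at 0.44, adjusted p = 0.138). Their sum was 143 to 161 TPM in PBS, 104 to 176 in HEK-EV and 134 to 177 in MSC-EV, most of it Ighm. The part of these cells in the class II values was not tested.

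Other lists cover further cells that the CD11b+ fraction could hold. Over all genes, 5.11% passed in MSC-EV against PBS and 5.91% in MSC-EV against HEK-EV, with 23% and 23.3% at an unadjusted p under 0.05. Of 8 Ly6C-high monocyte genes, 4 fell in MSC-EV against PBS (Ly6c2, Vcan, Chil3 and Plac8) and 4 in MSC-EV against HEK-EV (Vcan, Chil3, Fn1 and F13a1), and the summed level was 6021 to 12031 TPM in PBS, 7610 to 9731 in HEK-EV and 3656 to 4565 in MSC-EV. Of 21 alternatives, 6 to 15 kept these calls against PBS and 9 to 17 kept those against HEK-EV. Kupffer cell markers summed to 2703 to 3251 TPM in PBS, 1841 to 3784 in HEK-EV and 1515 to 2637 in MSC-EV, and 0 of 7 passed in limma in any comparison (2 at an unadjusted p under 0.05 with MSC-EV set against PBS). Sinusoidal endothelial markers summed to 273 to 313 TPM in PBS, 168 to 383 in HEK-EV and 104 to 201 in MSC-EV, and 0 of 7 passed, with 7 at an unadjusted p under 0.05 in the same comparison, all lower. Of 5 T and NK cell markers and 19 acinar markers tested, 0 passed in any comparison, with 2 and 0 at an unadjusted p under 0.05 in MSC-EV against PBS. Of 8 neutrophil markers 0 passed in MSC-EV against PBS, with 2 at an unadjusted p under 0.05. Against HEK-EV 1 was lower, Csf3r (kept in 8 of 21 alternatives), with 7 of 8 at an unadjusted p under 0.05 (6 lower, and Camp higher at 0.98 with an adjusted p of 0.0741). In HEK-EV against PBS 0 of 8 passed, and 3 were at an unadjusted p under 0.05, beside 3.58% of all genes. These were S100a9, Csf3r and Cxcr2, all higher in HEK-EV. The log2 fold change of Csf3r was 0.33 there and -0.02 in MSC-EV against PBS. The neutrophil sum was 3026 to 5603 TPM in PBS, 5024 to 6864 in HEK-EV and 2934 to 3749 in MSC-EV, with no overlap between MSC-EV and HEK-EV. The part of these myeloid and endothelial cells in the class II values was not tested.

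Within PBS and HEK-EV, the libraries low in class II were high in both monocyte and neutrophil markers. PBS replicate 1 had the lowest monocyte sum (6021 TPM) and neutrophil sum (3026 TPM) of its group and PBS replicate 3 the highest of both, and HEK-EV replicate 3 had the highest of both in its group. In MSC-EV, replicate 3, the lowest in class II, had the highest monocyte sum (4565 TPM) and the lowest neutrophil sum (2934 TPM). Over the 6 PBS and HEK-EV libraries, 8 lists were compared with H2-Aa, a set of relations added after seeing the data. Pearson's r was -0.812 for neutrophils (exact permutation p = 0.0389, adjusted 0.25), 0.739 for B cells (exact permutation p = 0.0625, adjusted 0.25), 0.736 for T and NK cells (exact permutation p = 0.121, adjusted 0.311) and -0.667 for Ly6C-high monocytes (exact permutation p = 0.156, adjusted 0.311). The other 4 lists gave -0.046 to 0.477, with exact permutation p-values of 0.35 to 0.964. Spearman's rho for the 4 lists named was -0.943, 0.714, 0.543 and -0.714 in that order (exact permutation p = 0.0167, 0.136, 0.297 and 0.136, adjusted 0.133, 0.363, 0.569 and 0.363). Without the 2 libraries farthest from the median of each list, r was -0.580, 0.378, -0.534 and -0.274 for these lists and 0.307 to 0.934 for the other 4. After adjustment 0 of the 8 lists passed over all 6 libraries.

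**Figure D5:**
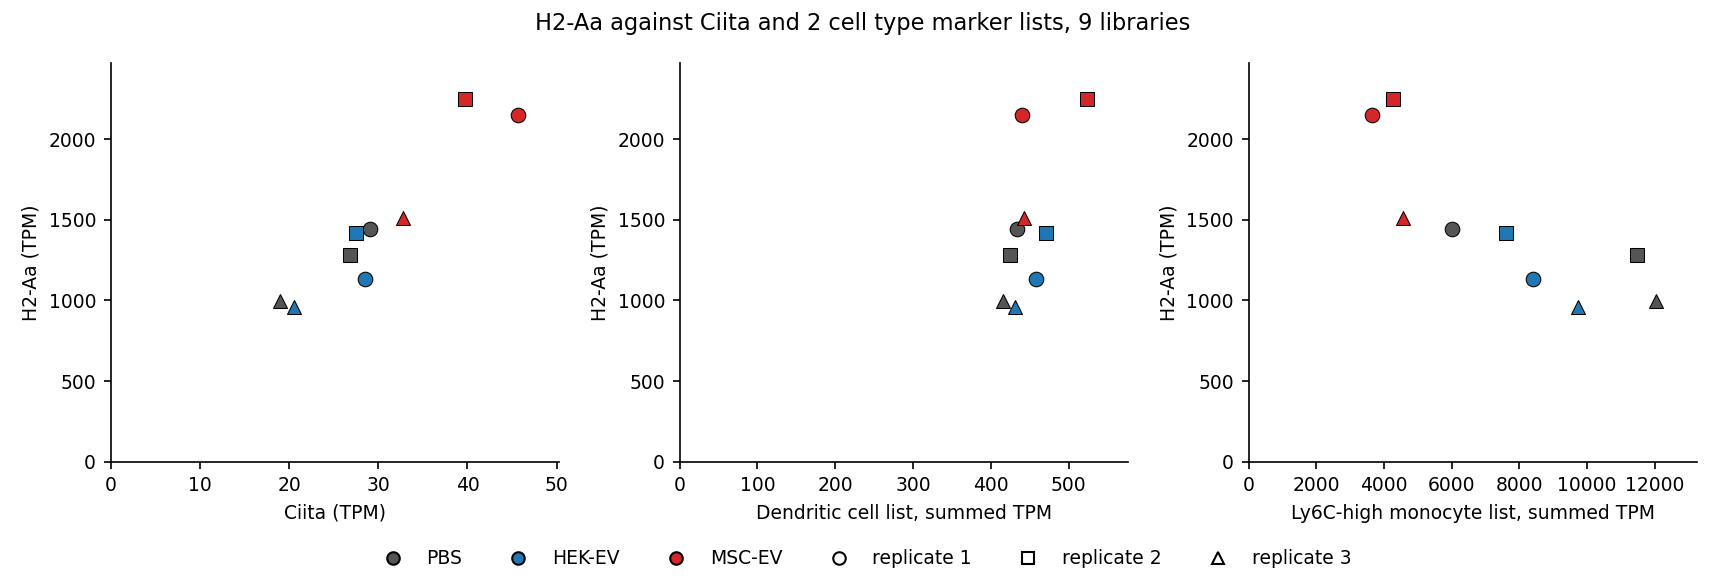
H2-Aa (vertical axis, TPM) in each of the 9 libraries against Ciita (left, TPM), the summed TPM of 15 dendritic cell markers (middle) and the summed TPM of 8 Ly6C-high monocyte markers (right); colours are groups and point shapes are replicates. The 3 MSC-EV libraries have the highest Ciita, 32.8 to 45.7 TPM, and the lowest monocyte sums, 3656 to 4565 TPM.

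The genes most alike the class II genes were sought among 9475 others with a mean of at least 5 TPM. They were ranked by Pearson's r over the 9 libraries with the mean z-score of the 10 genes. Genes of the pathway and cell marker lists, predicted genes and Riken clones were left out of the search. None of those could therefore be picked, however alike. The 8 closest were Aph1c, Acads, Tmem141, Ighj1, Kcne3, Scpep1, Tmem86a and Gltp, in falling order from r = 0.988 to r = 0.959. Aph1c, a subunit of gamma-secretase, read 11.6, 10.5 and 8.49 TPM in PBS, 10.1, 12.1 and 8.38 TPM in HEK-EV and 17.8, 16.9 and 12.9 TPM in MSC-EV. Ighj1, a joining segment of the immunoglobulin heavy chain, read 14.2, 12.8 and 7.60 TPM in PBS, 10.9, 16.7 and 7.05 TPM in HEK-EV and 23.2, 19.7 and 19.4 TPM in MSC-EV. These genes were picked for their likeness, so their values are a description.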

How the data were processed

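Each library's table lists, per Entrez gene identifier, coverage, FPKM and TPM values that the authors deposited. Per the submitters' processing notes, HISAT2 2.1.0, StringTie and mm10 were used; the StringTie version, annotation and strand setting are not given in the sources used here. RNA was prepared with Trizol and a stranded mRNA kit, per the labels' protocols. FPKM and TPM are, per the file headers, the authors' normalized values; coverage is the deposited mean depth per base. Symbols came from RefSeq GRCm38.p6 (45679 of 45777 identifiers, 99.8%).

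Here, rows of an identifier were summed and genes reaching 1 TPM in 3 or more of the 9 libraries kept (13820). Values were log2(TPM + 1), with a pseudocount of 1, which understates changes of low genes. limma 3.58.1 (R 4.3.3; lmFit, contrasts.fit, eBayes with trend) was fitted over all 9 libraries with 3 groups, with Benjamini-Hochberg adjustment over all genes and a threshold of 0.05; the procedure was tested on simulated data. Ratios and correlations used exact permutation tests in SciPy 1.17.1. No counts were used, so no counting intervals are given. Coverage was divided by each library's most common coverage-to-FPKM ratio and scaled to the same sum in every library. All 10 genes are named in every comparison; of each pathway list, those past the threshold in any comparison, or else up to 3 of smallest p in MSC-EV against PBS, except Ctss, named for its role. The genes and lists were chosen with earlier results of these data known. Alternatives numbered 21, of which 2 were added after seeing the data.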

Additional observations from a re-analysis of the deposited data

How the results depend on the processing

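The count of the 10 class II genes past the threshold in MSC-EV against PBS was 1. It was 0 with no filter, with only the 6 samples compared, with coverage in place of TPM and with libraries split at 0.002% acinar TPM, 2 with relative depth as a covariate, 9 with array quality weights, and 0 to 7 when 1 replicate was left out. In MSC-EV against HEK-EV the count was 0; it was 2 with a minimum of 5 TPM, 2 with quantile normalization, 1 with only the 6 samples compared, 4 with the depth covariate, 6 with array quality weights, and 0 to 5 when 1 replicate was left out. In HEK-EV against PBS it was 0 throughout. Over all genes, the calls of MSC-EV against PBS went from 706 to 361 with no filter, 77 with the 6 samples, 563 on coverage, 21 with the acinar term, 1377 with the depth covariate, 4163 with array weights and 404 with the replicate block. Those of MSC-EV against HEK-EV went from 817 to 844 with a minimum of 5 TPM, 694 with quantile normalization, 1098 with the 6 samples, 1478 with the depth covariate, 2081 with array weights and 448 with the block. The replicate block gave 6, 0 and 5 genes for MSC-EV against PBS, HEK-EV against PBS and MSC-EV against HEK-EV, but the numbers share no label of a pairing: same-numbered libraries correlated at -0.50 to 0.06 in their deviations, 0 of 9 pairs over 0.1. The cause of these differences was not tested.

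Apart from H2-DMa, 0 of 9 genes changed sign in either MSC-EV comparison. H2-DMa turned in MSC-EV against PBS to -0.58 with array quality weights, -0.041 with the depth covariate and -0.70 with the acinar term, and ran from -0.14 to 0.75 when 1 replicate was left out. In MSC-EV against HEK-EV it turned to 0.28 on coverage and ran from -0.75 to 0.22 when 1 replicate was left out. Values near 0 in HEK-EV against PBS turned as follows. Array weights gave 0.0059 (H2-Ab1), 0.040 (H2-Eb1), -0.14 (H2-DMa) and 0.11 (H2-Ob). The depth covariate gave 0.042 (H2-Aa), 0.042 (H2-Ab1), 0.083 (H2-Eb1), 0.040 (Cd74) and 0.088 (H2-Ob). The acinar term gave -0.093 (Ciita), -0.58 (H2-DMa), -0.075 (H2-DMb1), -0.0045 (H2-DMb2) and -0.050 (H2-Oa). H2-DMb1 gave -0.014 on FPKM and -0.024 with median-of-ratios scaling, and H2-DMa gave -0.059 on coverage. With 1 replicate left out the values ran from -0.23 to 0.048 (H2-Aa), -0.23 to 0.073 (H2-Ab1), -0.20 to 0.078 (H2-Eb1), -0.24 to 0.078 (Cd74), -0.14 to 0.18 (Ciita), 0.012 to 0.98 (H2-DMa), -0.060 to 0.11 (H2-DMb1), -0.023 to 0.22 (H2-DMb2), -0.13 to 0.23 (H2-Oa) and -0.17 to 0.092 (H2-Ob).

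A split at 0.001% acinar TPM gave no value because all 9 libraries lay on 1 side, and keeping rows apart changed nothing because each gene had 1 row. Scaling alternatives moved the median of all genes by at most 0.06. With 3 libraries a group and no counts, the error of each value rests on few libraries.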

Other observations

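Tmem86a and Scpep1 were the most abundant of the genes alike to the class II set apart from Gltp. Scpep1, a lysosomal serine carboxypeptidase, was at 147 to 182 TPM in PBS, 144 to 176 TPM in HEK-EV and 196 to 222 TPM in MSC-EV, with every MSC-EV library above the other 6. Its log2 fold change in MSC-EV was 0.38 against PBS (limma adjusted p = 0.0606) and 0.37 against HEK-EV (adjusted p = 0.0599). Within groups, its r with the class II mean was 0.897 on 9 libraries, and that of Aph1c was 0.968.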
